A study of Mus musculus with 9 samples.

Results

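The heat shock response genes described here are 10 rows of the count tables: Hspa1a, Hspa1b, Hspa8, Dnajb1, Hsph1, Hsp90aa1, Hsp90ab1, Hspd1, Hspe1 and Hsf1, out of 23337 genes measured in each library. They were chosen by name as the core of the cytosolic and mitochondrial chaperone system and its transcription factor, after Hspa1b had been seen at a low level in mice given EnzR EVs, so the values of EnzR EVs against PBS chose the set and are given for all 10 genes as a description with no test. All 10 genes passed the filter on low counts, as did 12553 genes in all. RNA was sequenced from CD11b+ bone marrow cells of 9 C57BL/6 mice, 3 per group. Every mouse received 3 tail vein injections 48 h apart of either PBS or EnzR EVs, which are extracellular vesicles shed by enzalutamide-resistant CWR-R1 cells, a human prostate cancer line. The EV dose was 10 µg of vesicle protein in 100 µl on days 1, 3 and 5. The third group received the same EnzR EVs and, on days 0, 2 and 4, HDL NPs, nanoparticles built to mimic high-density lipoprotein, at 1 µM by the sample labels and 100 µM by the study's methods. No group received HDL NPs alone, so the effect of HDL NPs could be read in these libraries only on top of EnzR EVs. Marrow was collected 24 h after the last injection, and the cells were selected with an antibody to CD11b, so the libraries hold neutrophils and monocytes together with any other marrow cell that was carried along.

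The heat shock response protects cells from misfolded protein. Its transcription factor, HSF1, is held inactive by chaperones in unstressed cells. When unfolded protein draws the chaperones away, HSF1 forms trimers and binds heat shock elements, repeats of GAA and its reverse complement TTC, upstream of chaperone genes. Hspa1a and Hspa1b encode the inducible HSP70, which is low at rest and rises steeply after stress, whereas Hspa8, Hsp90ab1 and the mitochondrial pair Hspd1 and Hspe1 are housekeeping chaperones that most cells hold at a high level. In leukocytes the inducible genes are also known to respond to warming, handling and activation.

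The 2 inducible HSP70 genes are near copies, which limits how their counts can be read. Hspa1a (ENSMUSG00000091971.3) lies at chr17:34969190-34972156 and Hspa1b (ENSMUSG00000090877.3) at chr17:34956436-34959238 of GRCm38, both on the minus strand and both with a single exon. Their coding sequences are 99.5% identical, with 10 of 1929 aligned columns different. Of the 75-base windows of the Hspa1b transcript, the length of the reads, 55.8% also occur in Hspa1a, so a read from there has no unique origin and their sum is given beside each gene. Their promoters are alike as well, with 247 of 250 upstream bases the same. The upstream 250 bases of Hspa1a are shown because they are the sequence the 2 genes share, taken from RefSeq on GRCm38.p6, minus strand, chr17:34972157-34972406, with 8 bases that match GAANNTTC in capitals:
Hspa1a: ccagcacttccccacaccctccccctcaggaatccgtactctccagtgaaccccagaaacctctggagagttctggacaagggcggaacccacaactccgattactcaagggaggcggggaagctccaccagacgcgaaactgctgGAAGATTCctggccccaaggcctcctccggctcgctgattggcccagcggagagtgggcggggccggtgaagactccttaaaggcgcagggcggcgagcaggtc
The same 8 capital bases stand at the same distance from the start of Hspa1b.

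Hspd1 and Hspe1, which encode the mitochondrial chaperonin HSP60 and its lid HSP10, are arranged head to head. Hspd1 lies at chr1:55077835-55088243 on the minus strand and Hspe1 at chr1:55088132-55091307 on the plus strand, so the genes overlap at their 5′ ends. RefSeq gives Hspd1 2 start sites, and the upstream region of the shorter transcript (chr1:55087933-55088182) overlaps with that of Hspe1 (chr1:55087898-55088147). The 30 bases at chr1:55088053-55088082, which also lie in the first exon of a longer Hspd1 transcript in GENCODE, are shown on each strand because they carry the element letters of both these regions, with the run of alternating TTC and GAA units in capitals:
Hspd1: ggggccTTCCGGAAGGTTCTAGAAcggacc
Hspe1: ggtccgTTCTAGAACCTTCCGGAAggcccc
A heat shock element of 3 units, which is GAA and TTC in alternation with any 2 bases between neighbours, starting with either and searched on both strands, was present in 198 of 32851 RefSeq promoters of 300 bases, which is 0.603%. The table held a promoter for 6 of the 10 genes, and 3 of these 6 had such a match, namely Hspd1, Hspe1 and Hsph1, whose match lay after the start site. A shorter form of 2 units, GAANNTTC or TTCNNGAA, which lies within the longer one and was added after the promoters had been read, occurred in 15.1% of all promoters and in 5 of the 6, with Dnajb1 the exception. These are matches of letters, and no binding was measured.

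Among the other genes, Hspa8 is at chr9:40800984-40810087 and holds 3 Snord14 genes in its introns, Dnajb1 at chr8:83608193-83612653, Hsf1 at chr15:76477422-76501913, Hsp90aa1 at chr12:110690605-110702728, Hsp90ab1 at chr17:45567775-45573271 and Hsph1 at chr5:149614287-149636376. Shared sequence is not limited to the inducible pair. Hspa8 shares 68% of its 75-base windows with other genes, mainly with Gm15459, and Hsp90aa1 shares 53.1%, mainly with Gm12346. Hspd1 shares 33.7% and Hspe1 23.7%, whereas Dnajb1, Hsph1 and Hsf1 share 0%. How reads with several origins were counted is not given in the sources used here, so the levels of the genes with shared windows are less certain than those of the genes without.

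**Figure D1:**
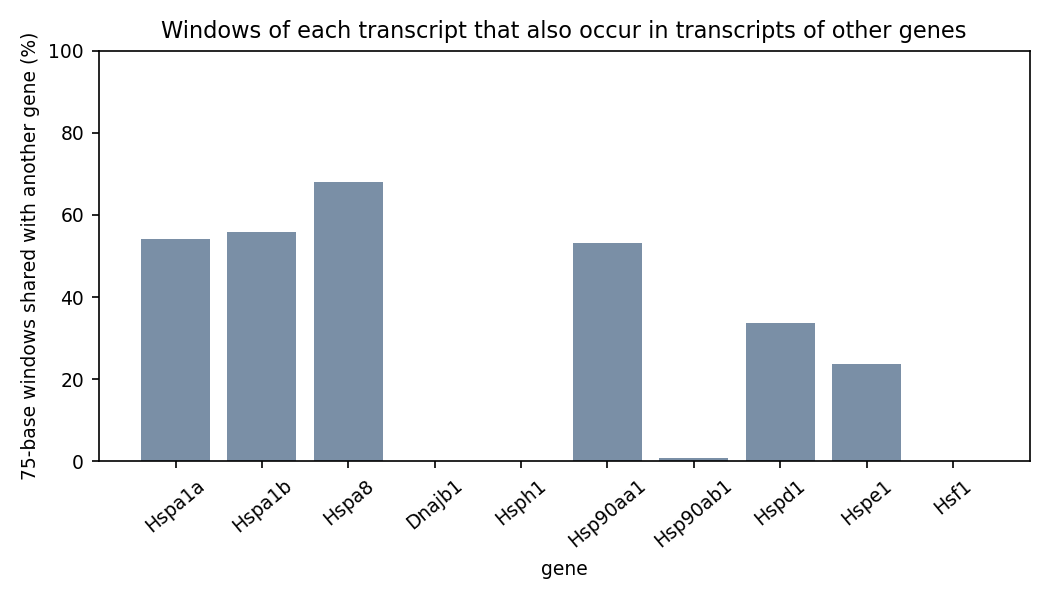
Share of the 75-base windows of each gene's transcript that also occur in a transcript of another gene, in percent, 1 bar per gene. Hspa8 has the tallest bar at 68%, and Dnajb1, Hsph1 and Hsf1 are at 0%.

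The libraries differed in depth and in ribosomal RNA. Total counts ranged from 2575776 to 18110561. Rn45s, the ribosomal RNA precursor, took 42.7% of the counts of EnzR EVs mouse 1, 20.3% of PBS mouse 1 and 14.2% of EnzR EVs mouse 3, against 0.657% to 2.87% in the other 6 libraries. Levels below are CPM, the counts scaled to the library total and its TMM factor, on which 3 counts correspond to 0.1597 CPM in the deepest library and 1.646 CPM in EnzR EVs mouse 1. Itgam, which encodes CD11b, was between 1389 and 2006 CPM in every library. The neutrophil gene S100a8 was lowest in the 3 libraries richest in Rn45s, at 1745 CPM in EnzR EVs mouse 1, 6236 CPM in PBS mouse 1 and 7806 CPM in EnzR EVs mouse 3. It was at 12505 to 38307 CPM in the other 6. The summed level of 14 CD11b+ myeloid markers was also lowest there, at 33143 to 69890 CPM against 84979 to 149964 CPM. The part of these cells in the levels below was not tested. In these bulk samples, fewer cells of a type and less RNA per cell cannot be told apart.

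The inducible HSP70 genes were low in all mice given EnzR EVs, with or without HDL NPs. Hspa1b was at 21.1, 2.70 and 4.98 CPM in PBS mice 1, 2 and 3, from 120, 47 and 87 counts. In EnzR EVs mice 1, 2 and 3 it was at 0, 0.798 and 0.828 CPM, from 0, 15 and 7 counts. In mice given EnzR EVs + HDL NPs it was at 0.732, 0.954 and 0.699 CPM. All 6 mice given EVs therefore lay below all 3 PBS mice. The 0 in EnzR EVs mouse 1 is a library in which even 3 counts would read as 1.65 CPM. Of the 12553 genes tested, 117 had all 6 EV mice below all 3 PBS mice, which is 0.932%. Hspa1b was the only 1 of the 10 heat shock genes among them. Its low level in EnzR EVs mice had led to the choice of genes, so its place there is a description only.

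Hspa1a was likewise highest in PBS, with an overlap at 1 EnzR EVs mouse. It was at 13.0, 2.76 and 4.58 CPM in PBS mice and at 3.29, 0.479 and 1.06 CPM in EnzR EVs mice. The value of 3.29 CPM came from 6 counts in the shallow EnzR EVs mouse 1 and lay above PBS mouse 2. In mice given EnzR EVs + HDL NPs, Hspa1a was at 0.957, 0.358 and 0.629 CPM, below every PBS mouse. The split of counts between the near copies differed by library, with 6 in Hspa1a and 0 in Hspa1b in EnzR EVs mouse 1. The sum does not depend on this split. It would not restore reads dropped for lack of a unique origin, and the source of the split was not tested.

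Hspa1a and Hspa1b together were at 34.1, 5.46 and 9.55 CPM in PBS mice, 3.29, 1.28 and 1.89 CPM in EnzR EVs mice, and 1.69, 1.31 and 1.33 CPM in EnzR EVs + HDL NPs mice. The groups given EVs did not overlap with PBS, and the PBS mice spread most widely, with PBS mouse 1 standing far above the other two. The mean was 16.4 ± 15.5 CPM (SD, n = 3) in PBS, 2.15 ± 1.03 CPM in EnzR EVs and 1.44 ± 0.213 CPM in EnzR EVs + HDL NPs. Within PBS and among the EV mice the pair was highest in the libraries rich in Rn45s, whose part in its level was not tested. For EnzR EVs against PBS the edgeR log2 fold change of the sum was -3.15 (SE 0.69), that of Hspa1a was -2.60 (SE 0.79) and that of Hspa1b was -3.65 (SE 0.82). Without PBS mouse 1 the sum was at -2.06. In that comparison 13 of the 12553 genes had a log2 fold change under -2, which is 0.104%, and Hspa1a and Hspa1b were 2 of the 13. Low Hspa1b in that comparison had led to the choice of genes, so the place of the near copies among the 13 is a description only. Over all genes edgeR called 0 in that comparison at an adjusted p under 0.05 and 436 (3.47%) at an unadjusted p under 0.05, limma voom called 0, and DESeq2 called 11 (0.0876%).

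**Figure D2:**
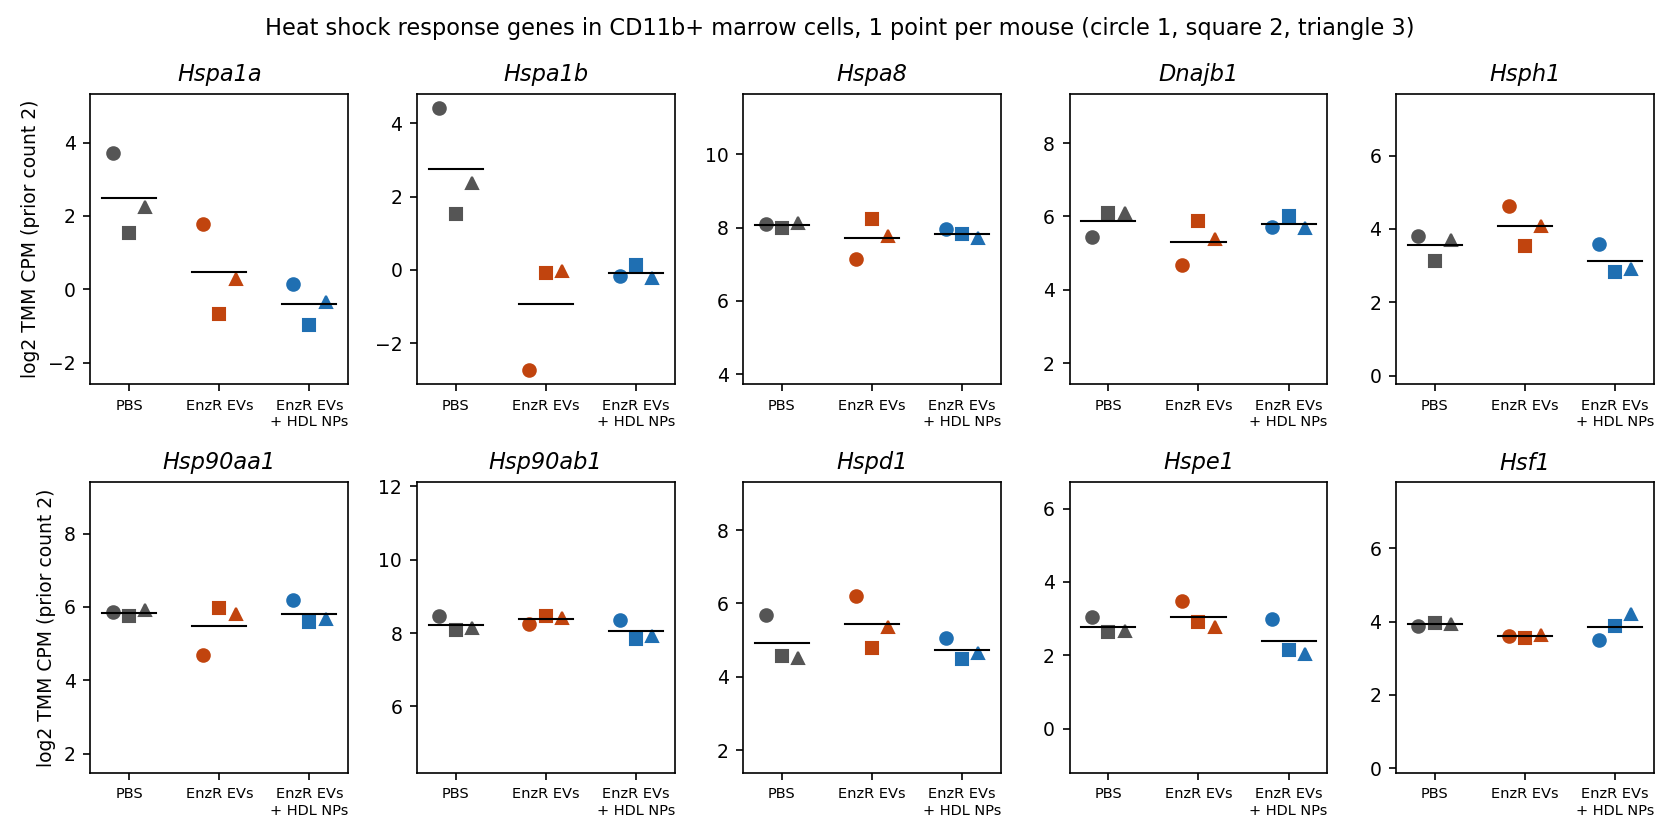
Level of each heat shock response gene in each mouse as log2 TMM CPM with a prior count of 2, by group, with 1 point per mouse and a line at the group mean. All panels span the same number of log2 units; in the Hspa1b panel all 6 mice given EVs lie below the 3 PBS mice, and in the other panels except Hspa1a the groups lie close together.

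The comparison of EnzR EVs + HDL NPs with PBS asked whether gene expression in mice given both agents differed from that in PBS mice. It shares the PBS mice with the comparison that chose the genes, so the high PBS levels enter both. The sum of Hspa1a and Hspa1b was 11.4-fold lower by group means, with a log2 fold change of -3.45 (SE 0.64). Hspa1a was at -3.30 (SE 0.72) and Hspa1b at -3.51 (SE 0.74). edgeR called neither gene nor their sum after Benjamini-Hochberg adjustment (adjusted p = 1 for each), although the sum ranked 1 by p among all genes (unadjusted p = 0.000241 by edgeR). edgeR called 0 of all genes in this comparison at an adjusted p under 0.05 (percent called 0), and 268 genes (2.13%) at an unadjusted p under 0.05, and limma voom called 0 as well. DESeq2 called 8 genes (0.0637%), and Hspa1a and Hspa1b were 2 of them, with DESeq2 adjusted p = 0.0148 and 0.00407. On data simulated for EnzR EVs against PBS, DESeq2 made false calls more often than edgeR or limma voom. That was a different comparison, so it cannot say whether the DESeq2 calls of Hspa1a and Hspa1b here are false. For the sum the adjusted p ranged from 0.000172 to 1 over the alternatives. Without PBS mouse 1 the log2 fold change of the sum was -2.37, DESeq2 called the sum at an adjusted p = 0.00374, and neither gene alone (DESeq2 adjusted p = 0.722 for Hspa1a and 0.159 for Hspa1b). The two-sided exact permutation test of the sum gave p = 0.1, the smallest value that 3 against 3 mice allow.

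EnzR EVs + HDL NPs against EnzR EVs tested whether HDL NPs moved the genes in mice that had received the vesicles. The EnzR EVs mice, whose low Hspa1b had led to the choice of genes, are 1 arm of this comparison, so it is not independent of that choice for the pair. The sum of Hspa1a and Hspa1b differed by -0.30 on the log2 scale (SE 0.72, edgeR adjusted p = 0.851), Hspa1a by -0.70 (SE 0.86, adjusted p = 0.707) and Hspa1b by 0.14 (SE 0.88, adjusted p = 0.95). The groups overlapped for both genes, as they did for all 10, whereas 8.58% of all genes were lower and 8.99% higher without overlap. The pair had 46 counts in all EnzR EVs mice and 71 in all EnzR EVs + HDL NPs mice. Hspa1a was at -0.12 without EnzR EVs mouse 1 and at -1.39 without EnzR EVs mouse 2. The sign for Hspa1b turned to -0.03 without EnzR EVs mouse 1, the library with 0 counts.

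Some immediate early genes and marrow macrophage markers were also lower in the EV groups. Of 29 immediate early genes, the first genes to respond to many stimuli, 10 were lower without overlap in EnzR EVs than in PBS (4.52% of all genes were) and 9 in EnzR EVs + HDL NPs (6.21% of all genes). Without overlap, 1 was higher in EnzR EVs (3.43% of all genes) and 0 in EnzR EVs + HDL NPs (6.96%). Atf3, a stress-induced transcription factor, was between 82 and 97.7 CPM in PBS mice and between 30.7 and 59 CPM in the 6 EV mice. Fos was between 1172 and 1332 CPM in PBS mice and between 675 and 1112 CPM in EV mice, and PBS mouse 1 was the lowest PBS mouse for Fos. Jun was at 300 CPM in PBS mouse 1, the mouse with the highest Hspa1a and Hspa1b. It was at 200 CPM in EnzR EVs mouse 1 and 151 CPM in EnzR EVs mouse 3, and these 3 libraries are the richest in Rn45s. The other 6 were at 79.6 to 132 CPM. The summed level of the 29 genes was 5909 to 7251 CPM in PBS, 4721 to 7128 CPM in EnzR EVs and 3886 to 5551 CPM in EnzR EVs + HDL NPs. The 2 highest sums, in PBS mouse 1 and EnzR EVs mouse 1, came from the 2 libraries with the most Rn45s, and every other library was at most at 5958 CPM. The part of ribosomal RNA in Jun and in this sum was not tested. No gene of either list passed the adjusted threshold of edgeR in any comparison. All 10 of the marrow macrophage markers analysed were detected in every library, 3 were lower without overlap in each EV group, and their summed level was 688 to 1258 CPM in PBS, 524 to 676 CPM in EnzR EVs and 588 to 789 CPM in EnzR EVs + HDL NPs. At an unadjusted p under 0.05 by edgeR, 7 of the 10 were lower in EnzR EVs than in PBS (1.92% of all genes) and 2 of the 10 in EnzR EVs + HDL NPs (1.12%), with list medians of -0.81 and -0.60 on the log2 scale. Vcam1, the most abundant of them, was between 172 and 194 CPM in EnzR EVs mice and between 206 and 401 CPM in PBS mice, and the EnzR EVs + HDL NPs mice, at 196 to 294 CPM, overlapped with PBS. Among PBS mice the summed level of the macrophage markers was lowest in mouse 1, at 688 CPM, a library rich in Rn45s. The summed levels of the other marker lists were, in PBS, EnzR EVs and EnzR EVs + HDL NPs in turn, 133 to 174, 102 to 143 and 87.4 to 134 CPM for erythroid markers, most of it Tfrc, with the 4 globin genes analysed at 0 in every library. B lineage markers were at 16.3 to 24.8, 9.37 to 21.9 and 7.75 to 22.1 CPM. T and NK cell markers were at 48 to 56.7, 50.4 to 78.5 and 31.3 to 50.4 CPM. Platelet markers were at 33.6 to 132, 36.9 to 102 and 45 to 74.5 CPM, and stromal and endothelial markers at 37.8 to 112, 52.1 to 105 and 65.9 to 82.4 CPM. The summed level of each of these 5 lists overlapped between PBS and both EV groups. Their list medians were negative too, so lower values were not particular to macrophage markers. For EnzR EVs and EnzR EVs + HDL NPs against PBS they were -0.98 and -0.69 for B lineage markers and -0.77 and -0.57 for erythroid markers. They were -0.45 and -0.32 for T and NK cell, -0.33 and -0.61 for platelet, and -0.21 and -0.24 for stromal and endothelial markers. Over all genes they were -0.03 and -0.01. The part of these cells and of the early genes in the HSP70 levels was not tested.

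Hspa8, the constitutive HSP70 that folds new proteins and uncoats clathrin vesicles, was far above the inducible pair in every mouse. It was at 271, 252 and 281 CPM in PBS mice, 141, 302 and 219 CPM in EnzR EVs mice and 250, 227 and 208 CPM in EnzR EVs + HDL NPs mice. The EnzR EVs mice lay on both sides of PBS, with a log2 fold change of -0.27 (SE 0.24), which was -0.03 without EnzR EVs mouse 1 and -0.54 without EnzR EVs mouse 2. The EnzR EVs + HDL NPs mice lay just below PBS without overlap, with -0.23 (SE 0.24) and an edgeR adjusted p = 1. In that comparison 3 of the 10 genes were lower without overlap, Hspa1a, Hspa1b and Hspa8, beside 6.21% of all genes, and 0 were higher, beside 6.96%.

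Dnajb1 and Hsph1, the partners of HSP70 in the set, overlapped between all groups. Dnajb1, the HSP40 that hands substrates to HSP70 and a classical HSF1 target, was at 42.8, 68.5 and 68.6 CPM in PBS mice, 25.2, 58.5 and 41.4 CPM in EnzR EVs mice and 52.4, 64.2 and 50.8 CPM in EnzR EVs + HDL NPs mice. PBS mouse 1, highest for Hspa1a and Hspa1b, was the lowest PBS mouse for Dnajb1. The 3 lowest values, 25.2, 41.4 and 42.8 CPM, belong to the 3 libraries richest in Rn45s, and the other 6 were at 50.8 to 68.6 CPM. Dnajb1 was therefore low where ribosomal RNA was high, and the part of ribosomal RNA in its level was not tested. The log2 fold change of Dnajb1 was -0.49 (SE 0.29) for EnzR EVs against PBS, -0.11 (SE 0.28) for EnzR EVs + HDL NPs against PBS and 0.38 (SE 0.29) against EnzR EVs, the last 2 with edgeR adjusted p = 1 and 0.554. For EnzR EVs against PBS it was -0.26 without EnzR EVs mouse 1 and -0.79 without EnzR EVs mouse 2. For EnzR EVs + HDL NPs against EnzR EVs it was 0.15 and 0.68 without the same mice.

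Hsph1, the HSP110 that exchanges nucleotide on HSP70, was at 13.9, 8.57 and 12.9 CPM in PBS mice, 24.7, 11.4 and 16.8 CPM in EnzR EVs mice and 11.9, 6.91 and 7.40 CPM in EnzR EVs + HDL NPs mice. EnzR EVs mice 1 and 3 were above every other mouse, and mouse 2 lay within the PBS range. The 3 highest values, those of EnzR EVs mice 1 and 3 and PBS mouse 1, belong to the 3 libraries with the largest share of Rn45s (42.7%, 14.2% and 20.3%), whose part in the Hsph1 level was not tested. EnzR EVs were at 0.53 (SE 0.34) against PBS on the log2 scale. EnzR EVs + HDL NPs were at -0.94 (SE 0.33) against EnzR EVs, with an edgeR unadjusted p = 0.0173, the lowest of the 10 genes, and an edgeR adjusted p = 0.461. In that comparison 10.6% of all genes had an unadjusted p under 0.05. By adjusted p edgeR and limma voom called 0 genes (0%), and DESeq2 called 1 gene (0.00797%), which was none of the 10. Without EnzR EVs mouse 1 the difference was -0.68.

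The 2 cytosolic HSP90 genes were abundant and overlapped between all groups. Hsp90ab1, the constitutive form, was at 350, 269 and 284 CPM in PBS mice, 306, 353 and 342 CPM in EnzR EVs mice and 330, 230 and 243 CPM in EnzR EVs + HDL NPs mice. Hsp90aa1, the stress-inducible form, was at 57.6, 53.5 and 60.2 CPM in PBS mice, 25.8, 62.4 and 55.6 CPM in EnzR EVs mice and 72.7, 47.6 and 50.4 CPM in EnzR EVs + HDL NPs mice. The log2 fold changes of EnzR EVs against PBS were 0.15 (SE 0.19) for Hsp90ab1 and -0.22 (SE 0.29) for Hsp90aa1. For EnzR EVs + HDL NPs against PBS they were -0.17 (SE 0.19) and -0.00 (SE 0.28), both with edgeR adjusted p = 1. Against EnzR EVs they were -0.32 (SE 0.19, edgeR adjusted p = 0.489) and 0.21 (SE 0.29, adjusted p = 0.728). The low Hsp90aa1 value of EnzR EVs mouse 1 came from 47 counts.

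The mitochondrial chaperonin genes were highest in EnzR EVs mouse 1. Hspd1 was at 50.9, 23.4 and 22.8 CPM in PBS mice, 74.1, 27.3 and 41.0 CPM in EnzR EVs mice and 33.3, 22.2 and 24.7 CPM in EnzR EVs + HDL NPs mice. Hspe1 was at 8.10, 6.04 and 6.24 CPM in PBS mice, 11.0, 7.29 and 6.62 CPM in EnzR EVs mice and 7.82, 4.29 and 3.98 CPM in EnzR EVs + HDL NPs mice. The 3 libraries with the highest Hspd1 were the 3 with the largest share of Rn45s, in groups PBS and EnzR EVs alike, and the part of ribosomal RNA in the Hspd1 level was not tested. Against PBS, EnzR EVs were at 0.53 (SE 0.40) for Hspd1, which was 0.10 without EnzR EVs mouse 1 and 0.98 without PBS mouse 1, and at 0.23 (SE 0.33) for Hspe1. EnzR EVs + HDL NPs against EnzR EVs were at -0.78 (SE 0.40, edgeR adjusted p = 0.466) for Hspd1 and -0.55 (SE 0.33, adjusted p = 0.49) for Hspe1. For Hspd1 this was -0.35 without EnzR EVs mouse 1 and -1.10 without EnzR EVs mouse 2. Against PBS, EnzR EVs + HDL NPs were at -0.26 (SE 0.39) for Hspd1 and -0.32 (SE 0.32) for Hspe1, both with edgeR adjusted p = 1. Hspd1 turned to 0.21 without PBS mouse 1.

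**Figure D3:**
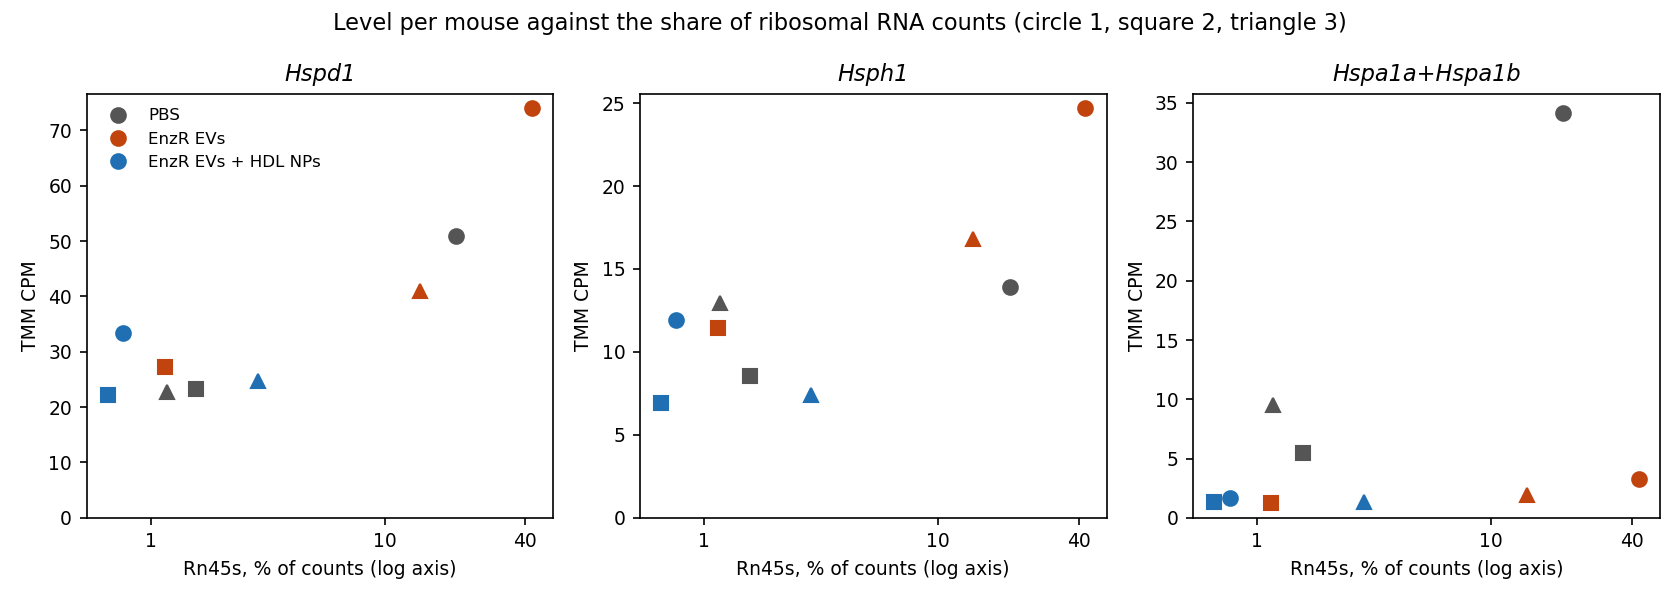
Level per mouse in TMM CPM of Hspd1, of Hsph1 and of Hspa1a and Hspa1b together against the share of Rn45s in the counts (percent, log axis), with colours for groups. Hspd1 is highest in the 3 libraries with 14.2% to 42.7% Rn45s, and the inducible HSP70 pair is highest in PBS mouse 1 among PBS mice and, at 3.29 and 1.89 CPM in the 2 EnzR EVs libraries with high Rn45s, highest there among the 6 EV mice.

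Hsf1, the transcription factor of the response, was the least variable of the 10 genes in CPM within PBS and EnzR EVs. It was at 14.6, 15.3 and 15.3 CPM in PBS mice, 12.1, 11.7 and 12.3 CPM in EnzR EVs mice and 11.1, 14.5 and 18.2 CPM in EnzR EVs + HDL NPs mice. These came from 83 to 267 counts in PBS mice and 22, 219 and 104 counts in EnzR EVs mice. From so few counts a narrow spread can arise by sampling, and the spread was not tested. EnzR EVs lay below PBS without overlap, at -0.33 (SE 0.22), and the EnzR EVs + HDL NPs mice spanned both groups, at -0.05 (SE 0.21, edgeR adjusted p = 1) against PBS and 0.28 (SE 0.22, edgeR adjusted p = 0.56) against EnzR EVs. HSF1 is controlled mainly at the protein level, which was not measured here. Hsf1 and Hspa1b were the 2 of the 10 genes lower without overlap in EnzR EVs than in PBS, beside 4.52% of all genes, in the comparison that chose the set, and 0 were higher, beside 3.43%.

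**Figure D4:**
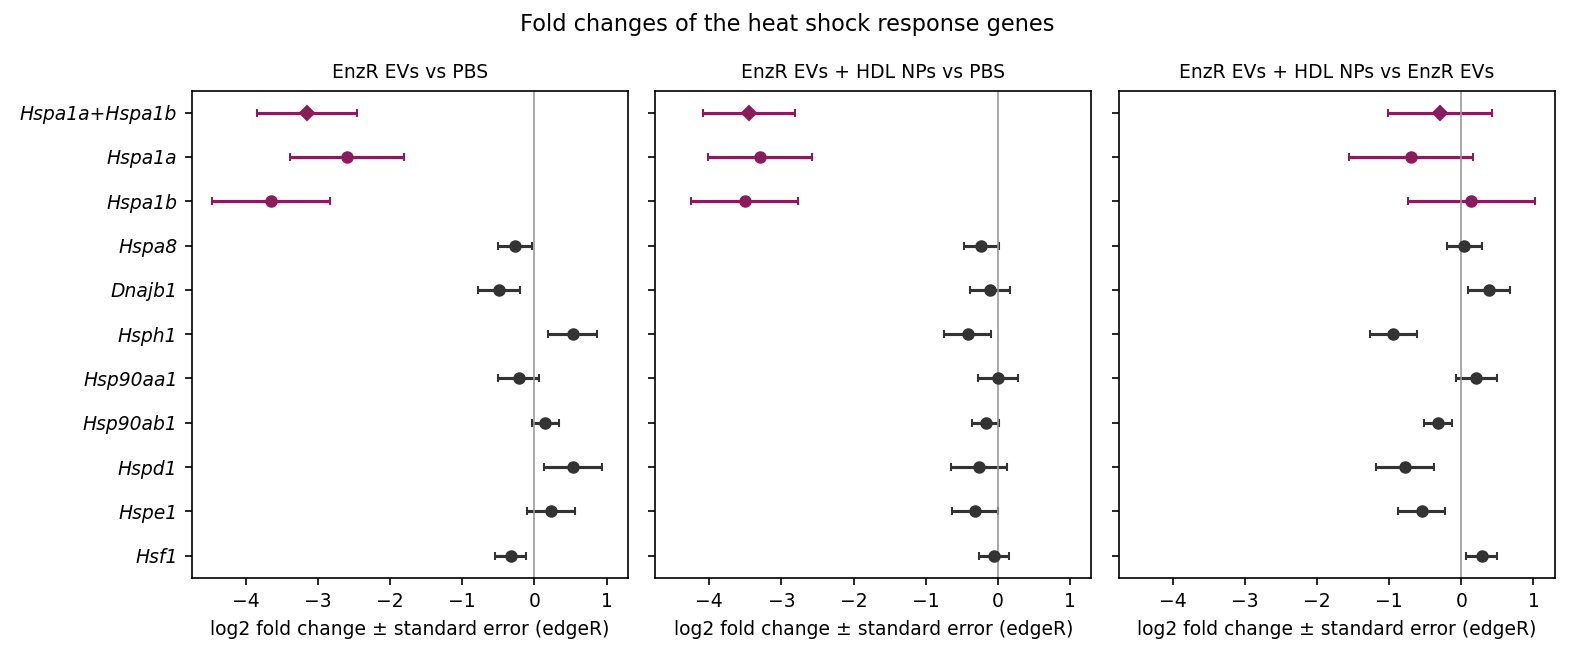
edgeR log2 fold change with its standard error for each heat shock response gene and for Hspa1a and Hspa1b together, in 3 panels for the 3 comparisons. The inducible pair lies between -3.65 and -2.60 in both comparisons with PBS, and the other 8 genes lie between -0.94 and 0.53 in all 3.

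Per kilobase of transcript, the order of mean levels in PBS was Hsp90ab1 (120 CPM per kb), Hspa8 (112), Dnajb1 (20), Hsp90aa1 (17.4), Hspd1 (13.3), Hspe1 (8.77), Hsf1 (7.46), Hspa1b (3.42), Hsph1 (3.1) and Hspa1a (2.29). Neighbours in this order overlapped between mice except Hspa8 and Dnajb1, and Hspe1 and Hsf1. Hspa1a and Hspa1b were at the end of the order in both EV groups, at 0.543 and 0.193 CPM per kb in EnzR EVs and 0.218 and 0.284 in EnzR EVs + HDL NPs. Hsph1, next above them, no longer overlapped with the pair in either EV group, whereas it lay between the 2 genes in PBS. A mean over so few counts carries the shared-read limit given above.

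Across mice, the relation of the other 8 genes to the inducible pair is given as a description with no test, since the PBS and EV mice occupied separate ranges of the pair and the PBS and EnzR EVs values had chosen the set. Pearson's r of log2 CPM with the sum of Hspa1a and Hspa1b lay between -0.06 for Dnajb1 and 0.35 for Hspe1 over 9 mice. As deviations from the group means, r was 0.88 for Hspd1, 0.71 for Hsph1, 0.58 for Hspe1, 0.47 for Hsp90ab1 and -0.81 for Dnajb1, and between -0.33 and -0.17 for the other 3 genes. PBS mouse 1 and EnzR EVs mouse 1, both rich in Rn45s, were the highest of their groups for the pair and for Hspd1 and the lowest for Dnajb1. Without these 2 libraries, which have the lowest totals, r over the remaining mice went from -0.06 to 0.56 for Dnajb1, from 0.29 to -0.33 for Hspd1 and from 0.27 to -0.07 for Hsp90ab1, so the signs rest on them. The 5 genes of mean CPM of at least 10 whose profile was most like the pair, out of 7773, were 1190002N15Rik (r = 0.950), Inppl1 (0.941), Hs6st1 (0.917), Cln8 (0.901) and Acss1 (0.898), none of them a heat shock gene. These were picked as the highest of many and are a description only. Among the 10 genes themselves, Hspa8 and Hsp90aa1 had the most similar profiles (r = 0.89 over 9 mice) and Dnajb1 and Hspd1 the most opposed (r = -0.95), with EnzR EVs mouse 1 at an end of both.

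The wider chaperone system was also read, from lists of 103 further genes of which 92 passed the filter. edgeR called 0 of the 92 in any of the 3 comparisons at an adjusted p under 0.05. At an unadjusted p under 0.05, EnzR EVs against PBS had 2 higher and 0 lower, beside 1.55% and 1.92% of all genes. EnzR EVs + HDL NPs against PBS had 1 higher and 1 lower, beside 1.02% and 1.12%. The addition of HDL NPs to EnzR EVs had 2 higher and 14 lower, beside 3.58% and 6.97%. The list medians were 0.05, -0.05 and -0.11 on the log2 scale in the 3 comparisons, beside -0.03, -0.01 and 0.03 over all genes. Without overlap, 4 of the 92 were higher and 2 lower in EnzR EVs than in PBS, beside 3.43% and 4.52% of all genes. In EnzR EVs + HDL NPs 3 were higher and 8 lower than in PBS, beside 6.96% and 6.21%, and 4 were higher and 14 lower than in EnzR EVs, beside 8.99% and 8.58%. The genes named next are the ends of these lists.

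Of 22 HSP90 co-chaperones, 7 were lower in EnzR EVs + HDL NPs than in EnzR EVs at an unadjusted p under 0.05, beside 6.97% of all genes. Fkbp4, an immunophilin that ties HSP90 to steroid receptors, was at 25.2 to 38 CPM with HDL NPs against 40.7 to 143 CPM without (log2 fold change -1.35, SE 0.43, edgeR adjusted p = 0.461). Aarsd1 was at 9.06 to 11.5 against 15.4 to 32.4 CPM (-1.14, SE 0.28) and Nudcd2 at 10.3 to 12.8 against 17.9 to 48.3 CPM (-1.24, SE 0.44), both with the same edgeR adjusted p = 0.461. The summed level of the 22 genes was 879 to 1221 CPM in EnzR EVs and 784 to 928 CPM in PBS. In EnzR EVs + HDL NPs the sum was 786 to 840 CPM, within the PBS range. Gene by gene, 5 of the 22 were lower and 1 higher without overlap in EnzR EVs + HDL NPs than in PBS, beside 6.21% and 6.96% of all genes. The sum was highest in the 3 libraries with the most Rn45s, at 1221 CPM in EnzR EVs mouse 1, 1010 CPM in EnzR EVs mouse 3 and 928 CPM in PBS mouse 1. Fkbp4 was at 143, 62.1 and 67.4 CPM in these 3 libraries and at 25.2 to 40.7 CPM in the other 6, and Nudcd2 and Aarsd1 were also highest in them. The part of ribosomal RNA in these levels was not tested. In the other direction, Cdc37l1 was at 33.1 to 37.7 CPM against 22.5 to 27.1 CPM (0.53, SE 0.17, adjusted p = 0.461), and Crebbp, an acetyltransferase that acts on HSF1, at 208 to 242 against 85.6 to 195 CPM (0.67, SE 0.28, adjusted p = 0.461). Dnaja1, an HSP40, was at 52.9 to 70.3 against 44.4 to 49.6 CPM (0.36, SE 0.17, adjusted p = 0.461). These 3 genes were lowest in the 3 libraries rich in Rn45s, with Crebbp at 85.6 to 138 CPM there against 195 to 242 CPM in the other 6.

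Fkbp5, a co-chaperone of HSP90 and a well known glucocorticoid target, was higher without overlap in both EV groups, at 84.6 to 102 CPM in PBS, 102 to 151 CPM in EnzR EVs (0.46, SE 0.22, edgeR adjusted p = 0.928) and 105 to 176 CPM in EnzR EVs + HDL NPs (0.58, SE 0.22, edgeR adjusted p = 1). The endoplasmic reticulum chaperones Hspa5 (519 to 590 CPM against 383 to 507 CPM in PBS, 0.28, SE 0.19) and Hsp90b1 (425 to 459 CPM against 320 to 378 CPM, 0.33, SE 0.18) were likewise higher without overlap in EnzR EVs, with edgeR adjusted p = 0.928 for each. Bag5 (-0.35, SE 0.29) and Dnajc6 (-0.20, SE 0.29) were lower without overlap in EnzR EVs, with edgeR adjusted p = 0.928 and 0.934. In EnzR EVs + HDL NPs against PBS, Hspbp1, a nucleotide exchange factor of HSP70, was at 4.12 to 4.9 CPM against 5.18 to 15.1 CPM (-0.95, SE 0.39), Hspb9 at 0.281 to 0.349 against 0.46 to 0.88 CPM (-1.09, SE 0.60) and Dnajb2 at 2.7 to 3.87 against 4.06 to 5.63 CPM (-0.44, SE 0.31). Yme1l1 (0.21, SE 0.18) and Hspa4l (0.22, SE 0.16) were higher there, and all 5 had an edgeR adjusted p = 1. None of these differences passed the adjusted threshold. Hspb9 was near the floor, with 5 counts in each EnzR EVs + HDL NPs mouse and 5, 8 and 13 counts in PBS mice 1, 2 and 3. Bag5 was at 3.84 CPM in EnzR EVs mouse 1, from 7 counts. In EnzR EVs mice 2 and 3 it was at 10.4 and 11.5 CPM, just below the 11.6 to 12.3 CPM of PBS mice. Hspbp1 was highest in the 3 libraries rich in Rn45s, at 15.1 CPM in PBS mouse 1, 11.5 CPM in EnzR EVs mouse 1 and 9.58 CPM in EnzR EVs mouse 3, against 4.12 to 6.52 CPM in the other 6. Dnajb2 was also highest in these libraries and Yme1l1 and Hspa4l were lowest in them, and the part of ribosomal RNA was not tested. Bag3, an HSF1 target that binds HSP70, was at 15.5 CPM in PBS mouse 1 and 13.2 CPM in EnzR EVs mouse 1 and at 5.96 to 9.22 CPM in the other 7, and Hspb1 had between 0 and 2 counts in every library.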

How the data were processed

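Stranded total RNA libraries, depleted of ribosomal RNA, were sequenced as single 75-base reads. Per the labels, the methods and the submitters' processing notes, the authors trimmed reads with cutadapt 1.13, aligned them to mm10 with STAR and counted them per gene with HTSeq on the UCSC annotation. The deposited values are raw counts per gene, 1 table per mouse, with no normalization; the strand and multiple-mapping settings of the counting are not given in the sources used here. Groups and replicate numbers came from the sample titles, and nothing in the labels says which mice were handled together.

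Counts were analysed with edgeR 4.0.16 in R 4.3.3: TMM factors, the default filter on low counts, and a robust quasi-likelihood fit to all 9 libraries with 1 coefficient per group. Adjusted p-values are Benjamini-Hochberg over the 12553 genes tested, with a threshold of 0.05. For the sum of Hspa1a and Hspa1b the 2 rows were replaced by their sum. Comparisons share mice: each PBS, EnzR EVs or EnzR EVs + HDL NPs library enters 2 of the 3. DESeq2 1.42.0 and limma 3.58.1 (voom), other scalings and filters, a replicate block and leaving out each mouse were alternatives. The fits were tested on simulated data for EnzR EVs against PBS, where DESeq2 made false calls more often than edgeR or limma voom. Genes, lists and comparisons were chosen with earlier results of these data known.

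Named genes were the 10 heat shock response genes and their sum; from the chaperone lists, genes past the adjusted threshold and, per comparison, the 3 highest and 3 lowest fold changes among genes whose groups do not overlap; the 5 profiles most like the pair; and Itgam, S100a8, Fos, Jun, Atf3 and Vcam1. Rn45s, Bag3 and Hspb1 were named after their values were seen. Positions and transcript windows came from GENCODE M21 and promoters from RefSeq on GRCm38.p6, the assembly of mm10. Ly6g and Adgre1 were not analysed here.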

Additional observations from a re-analysis of the deposited data

How the results depend on the processing

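Log2 fold changes and counts of calls were recomputed under up to 22 alternatives. The sum of Hspa1a and Hspa1b stayed negative in both comparisons with PBS under every alternative run; the filter of at least 10 counts in every library removed both genes and gave no value. Against PBS, EnzR EVs gave -2.0 with voom sample quality weights and -3.56 to -2.06 with 1 mouse left out, the latter value without PBS mouse 1. EnzR EVs + HDL NPs against PBS gave -3.49 with DESeq2 (adjusted p = 0.000172), -3.89 to -2.37 with 1 mouse left out, and -2.37 with DESeq2 without PBS mouse 1 (adjusted p = 0.00374), an alternative chosen after seeing the data. Over all genes, calls for EnzR EVs against PBS were 0 by edgeR, 11 by DESeq2, 1990 with quality weights, 1 with no filter, 5 without the 2 libraries of lowest total, and 0 to 2 with 1 mouse left out, with 2 without PBS mouse 1; the cause was not tested. Calls among the 10 heat shock genes for EnzR EVs + HDL NPs against PBS were 0 by edgeR and 2 by DESeq2. Over all genes that comparison had 8 calls by DESeq2 and 10 with quality weights. Adding HDL NPs to EnzR EVs gave 1 call by DESeq2, 653 with quality weights, and 1 with 6 libraries, without the 2 libraries of lowest total or without PBS mouse 1.

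The replicate numbers of the labels are not stated to pair mice: deviations of same-numbered mice correlated at -0.175 to 0.492 (mean 0.174, 9 pairs), those of other pairs at a mean of -0.0758. In a fit with a replicate block, the sum was at -2.61, -3.13 and -0.52 in the 3 comparisons, with edgeR adjusted p = 0.232 and 0.54 for the last 2, and 1 gene was called in EnzR EVs against PBS.

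For EnzR EVs against PBS, Hsp90aa1 went from -0.22 to 0.06 without the 2 libraries of lowest total and 0.05 without EnzR EVs mouse 1, and Hsp90ab1 from 0.15 to -0.01 with library size only. In EnzR EVs + HDL NPs against PBS, Hspd1 turned to 0.11 with quality weights and 0.22 without the 2 libraries of lowest total, Hsf1 to 0.00 with library size only, and Hsp90aa1 to 0.06 with library size only, 0.01 with no filter and 0.00 with the stricter filter, the block or without the 2 libraries of lowest total; with 1 mouse left out Hspd1 ranged from -0.47 to 0.21, Hsf1 from -0.23 to 0.13, Hsp90aa1 from -0.21 to 0.10 and Dnajb1 from -0.30 to 0.00. Against EnzR EVs, Hsp90aa1 turned to -0.01 with quality weights, and without the 2 libraries of lowest total Hsp90aa1 was at -0.06, Hspa8 at -0.20 and Hspa1b at -0.03; Hspa1b was at -0.14 with the block. With 1 mouse left out Hsp90aa1 ranged from -0.06 to 0.41, Hspa8 from -0.20 to 0.31 and Hspa1b from -0.03 to 0.29. Depth limits Hspa1a and Hspa1b most, with 0 to 17 counts each in the EV mice.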
